A study of Mus musculus with 9 samples.

Results

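Chosen for this report were 8 Toll-like receptor genes (Tlr1, Tlr2, Tlr4, Tlr6, Tlr7, Tlr8, Tlr9 and Tlr13), the adaptor gene Myd88 and the chaperone gene Unc93b1. They were followed across bone marrow leukemia cells of mice. These 10 genes were taken by symbol from the 55536 genes of the expression table, and all 10 were found in each of the 9 libraries. The leukemia was made with the MLL-AF9 fusion, carried by a retrovirus with GFP into c-kit+ marrow cells of WT or IRF7-/- mice of the C57BL/6J strain. GFP+ leukemia cells were then transplanted without irradiation into C57BL/6J recipients of 6 to 8 weeks of age and sorted from bone marrow on day 18, so the recipients of every group kept their own marrow and their own Irf7. Sorting by c-kit, the surface receptor that marks primitive cells of this leukemia, gave 3 groups of 3 libraries. They are called WT c-kit-, WT c-kit+ and IRF7-/- c-kit+, and a c-kit- group of the knockout is not among them. The sources do not say whether the 3 libraries of a group came from separate mice or separate primary leukemias, so the p-values below measure only the spread between these libraries, which may be technical.

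Toll-like receptors are the sensors with which myeloid cells recognise microbial products. Tlr1, Tlr2, Tlr4 and Tlr6 encode receptors of the cell surface, where TLR2 pairs with TLR1 to bind triacylated lipopeptides or with TLR6 to bind diacylated ones, and TLR4 binds lipopolysaccharide with CD14 and the protein made from Ly96. Tlr7, Tlr8, Tlr9 and Tlr13 encode receptors of the endosome that read nucleic acids, and UNC93B1 carries these from the endoplasmic reticulum to the endosome. All of them signal through MyD88, which recruits IRAK kinases and TRAF ubiquitin ligases and leads to NF-kappaB and, from the endosome, to the transcription factor IRF7, known for driving type I interferon in plasmacytoid dendritic cells.

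Values are TPM, a level scaled by transcript length and by the library's total, so levels of different genes can be compared within a library. Read numbers cannot be recovered from TPM, so depth is unknown and counting error is not given. The limma test took every gene that reached 1 TPM in 3 or more of the 6 libraries compared, and it was run on log2(TPM + 1), with p adjusted by Benjamini-Hochberg over every gene tested. For a low gene this scale makes a change look smaller than it is. A gene passed the test at an adjusted p under 0.05, and it was called where its log2 fold change was also at least 1 in size. The 3 comparisons share libraries and are not independent of each other.

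The label of the knockout was checked first. The level of Irf7 ran from 22.3 to 32.3 TPM in WT c-kit- cells, from 3.36 to 5.31 TPM in WT c-kit+ cells and from 5.97 to 12.8 TPM under the knockout label. All 3 of the latter thus exceeded all 3 WT c-kit+ libraries (log2 fold change 0.89, limma adjusted p = 0.0321, which ran from 0.0141 to 0.0949 over the alternatives), against their label. In IRF7-/- mice of this study exons 2 and 3 of Irf7 were replaced by a PGK-beta-geo cassette, and a value for the whole gene can hold reads of the exons that remain, so it does not check the deletion itself. These libraries are therefore called labelled, since any direction given for them depends on that label. The paper reports that it verified IRF7 in the WT and IRF7-/- leukemia models with qRT-PCR and Western blot, apart from these libraries. Phrf1 lies over Irf7 on the opposite strand, and the sources used here do not say if reads were counted by strand. It was at 51.7 to 53.6 TPM in WT c-kit-, 48.4 to 50.7 TPM in WT c-kit+ and 48.3 to 58.6 TPM in the labelled group. Phrf1 thus overlapped between the c-kit+ groups, and its part in the level of Irf7 was not tested. Kit, the gene of c-kit, followed the sort, at 0.52 to 3.03 TPM in WT c-kit- and 50.7 to 58.5 TPM in WT c-kit+. The labelled libraries had more Kit than WT c-kit+, at 70.3 to 85.7 TPM with no overlap. The log2 fold change was 0.58 (limma adjusted p = 0.00385, which ran from 0.00248 to 0.136 over the alternatives). In WT c-kit+ a larger part of the total, 13.1% to 17.3%, was held by its 10 most abundant genes than elsewhere (9.39% to 10.3%).

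Tlr1 (chr5:64924679-64933563) and Tlr6 (chr5:64952031-64960097) lie in tandem on the minus strand of GRCm38, 18.5 kb apart with 0 annotated genes between them. Tlr8 (chrX:167242696-167264329) and Tlr7 (chrX:167304929-167330558) form another such pair on the minus strand of the X chromosome, 40.6 kb apart, also with 0 genes between. Tlr2 is at chr3:83836272-83841767 (minus strand), Tlr4 at chr4:66827584-66930284 (plus), Tlr9 at chr9:106222598-106226883 (plus), Tlr13 at chrX:106143204-106160493 (plus), Myd88 at chr9:119335934-119341411 (minus) and Unc93b1 at chr19:3935186-3949340 (plus). Tlr1 and Tlr6 are close paralogs. The longest stretch in which they cannot be told apart is shown because the results turn on this pair, and their other shared stretches are not. The longest run shared by their coding sequences is 229 bases, at chr5:64925537-64925765 in Tlr1 (coding bases 1468 to 1696 of 2388) and chr5:64953828-64954056 in Tlr6 (coding bases 1507 to 1735 of 2421).
Tlr1 and Tlr6, GRCm38, minus strand: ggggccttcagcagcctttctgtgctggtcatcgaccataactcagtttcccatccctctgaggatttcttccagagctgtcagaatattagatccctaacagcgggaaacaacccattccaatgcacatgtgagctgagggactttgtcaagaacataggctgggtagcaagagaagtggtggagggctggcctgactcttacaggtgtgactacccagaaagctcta
Of all windows of 50 bases along the longest coding transcripts, 15.3% of those of Tlr1 also occur in Tlr6, and 12.6% of those of Tlr6 occur elsewhere in the transcriptome, nearly all in Tlr1. Reads from these stretches could be split between both genes by the authors' quantification, which is a limit on the level of either. The other 6 receptors and Unc93b1 share 0% of such windows with another gene. Myd88 shares 9.16% with Acaa1a, which overlaps it on the other strand and was at 48.5 to 91.1 TPM.

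The bases before the start sites of the receptors that moved against each other, and of Myd88, are shown for the motifs they hold. RefSeq promoter entries (GRCm38.p6) were matched for 7 of the 10 genes, with 9 start sites, and the 250 bases before each start were searched on both strands for GAAANNGAAA (core of the interferon-stimulated response element, which interferon regulatory factors bind), GGGANNNNCC (core of an NF-kappaB site) and GAGGAA (core of a PU.1 site, the myeloid ETS factor). These letters occur in 2.98%, 17.6% and 23.3% of 32851 windows of this length. The windows of Tlr1 (chr5:64933559-64933808), Tlr6 (chr5:64959167-64959416), Tlr2 (chr3:83841609-83841858) and Myd88 (chr9:119340019-119340268), all on the minus strand, are given with the matched letters in capitals.
Tlr1: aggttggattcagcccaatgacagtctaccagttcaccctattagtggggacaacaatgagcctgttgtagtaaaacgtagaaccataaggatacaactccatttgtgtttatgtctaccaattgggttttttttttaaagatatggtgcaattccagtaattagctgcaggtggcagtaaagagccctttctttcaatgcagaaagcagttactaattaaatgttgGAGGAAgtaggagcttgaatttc
Tlr6: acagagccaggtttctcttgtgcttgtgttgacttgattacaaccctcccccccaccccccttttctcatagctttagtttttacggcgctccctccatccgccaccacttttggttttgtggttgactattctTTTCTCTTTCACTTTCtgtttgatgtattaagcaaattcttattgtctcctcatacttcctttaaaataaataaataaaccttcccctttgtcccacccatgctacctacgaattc
Tlr2: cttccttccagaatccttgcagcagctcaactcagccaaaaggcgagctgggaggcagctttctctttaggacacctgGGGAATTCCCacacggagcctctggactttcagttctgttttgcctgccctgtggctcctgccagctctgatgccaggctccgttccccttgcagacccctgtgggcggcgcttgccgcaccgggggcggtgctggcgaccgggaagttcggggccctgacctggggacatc
Myd88: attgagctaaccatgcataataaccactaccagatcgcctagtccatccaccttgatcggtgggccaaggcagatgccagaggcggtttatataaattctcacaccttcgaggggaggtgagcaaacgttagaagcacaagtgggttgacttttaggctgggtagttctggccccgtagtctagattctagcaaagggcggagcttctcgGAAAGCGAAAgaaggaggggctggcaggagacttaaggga
Tlr1 holds the PU.1 letters 23 to 18 bases before the start. Tlr6 holds a pair of overlapping matches to the interferon-stimulated core, both on the other strand, from 116 to 101 bases before the start. Tlr2 holds a palindromic NF-kappaB match 172 to 163 bases before the start, and Myd88 one match to the interferon-stimulated core 40 to 31 bases before it. PU.1 letters were also found before Tlr8, Tlr9 and Tlr13, and none of the 3 motifs before the other start site of Tlr1 or of Tlr6. Tlr4, Tlr7 and Unc93b1 had no entry. A match is a description of letters and was not tested as a binding site.

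In the 2 c-kit+ groups the receptors of the TLR2 family changed places. Tlr1 and Tlr6 were higher in the libraries labelled IRF7-/- c-kit+ than in WT c-kit+, and Tlr2, their partner, was lower. Tlr4, Tlr7, Tlr9, Tlr13 and Myd88 did not pass the test, and Tlr8 was too low to be tested. Of the 10 genes, 9 were tested, 2 rose, 2 fell and 5 did not pass. Across all 13238 genes tested, 31.9% rose and 16.1% fell. Groups did not overlap for 5 of the 9, with Tlr1 and Tlr6 higher and Tlr2, Tlr7 and Unc93b1 lower in the labelled group, against 59.1% of all genes tested, 39% higher and 20.1% lower. Called higher were 2 of the 9 and called lower 1, where the background was 6.3% and 5.39% of all genes. The median log2 fold change was −0.18 over the 9 genes and 0.12 over all genes tested. Other scalings moved the latter to 0.02 to 0.04, and they changed the split of all genes from 4222 higher and 2135 lower to 3255 and 2657 with quantile normalization. Neutrophil genes fell in the same comparison, 9 of the 10 listed, and their part in these changes was not tested.

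Tlr1, the TLR2 partner for triacylated lipopeptides, was 4.24, 5.22 and 5.91 TPM in WT c-kit+ libraries 1, 2 and 3, while the labelled IRF7-/- c-kit+ libraries had 20.6, 17.0 and 18.3 TPM. Every library of the labelled group stood above every WT c-kit+ library, with means 3.64-fold apart. The log2 fold change was 1.69 (SE 0.13, 95% interval 1.37 to 2.00, limma adjusted p = 0.000218). In WT c-kit- cells Tlr1 was 25.4, 21.1 and 20.3 TPM, so the labelled c-kit+ libraries lay near these, and the first library of the labelled group overlapped them. Against WT c-kit- the log2 fold change of Tlr1 in the labelled group was −0.24 (95% interval −0.52 to 0.03, limma adjusted p = 0.108).

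Tlr6, the TLR2 partner for diacylated lipopeptides, followed the same order. It was 1.32, 2.18 and 2.12 TPM in WT c-kit+, while the labelled IRF7-/- c-kit+ libraries had 8.69, 11.3 and 10.9 TPM. The groups did not overlap, and their means were 5.50-fold apart (log2 fold change 1.98, SE 0.17, 95% interval 1.57 to 2.39, limma adjusted p = 0.000296). WT c-kit- libraries had 14.8, 12.1 and 8.98 TPM, a range that holds all but 1 of the labelled libraries. The log2 fold change of Tlr6 between WT c-kit- and the labelled group was −0.18 (95% interval −0.63 to 0.27, limma adjusted p = 0.440). For neither partner does the missed threshold show that these populations had equal levels.

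Tlr2 itself moved the other way. It was 9.65, 11.5 and 12.0 TPM in WT c-kit+, while the labelled IRF7-/- c-kit+ libraries had 2.70, 4.83 and 2.68 TPM, with library 2 the highest of that group and still below every WT c-kit+ library. The log2 fold change was −1.48 (SE 0.20, 95% interval −1.96 to −1.0, limma adjusted p = 0.00166). In WT c-kit- cells it was 54.9, 57.5 and 68.6 TPM, the highest level of the 3 groups, and the labelled group lay 17.7-fold below these (log2 fold change −3.83, SE 0.20, limma adjusted p = 1.78e-05). The 3 calls for Tlr1, Tlr6 and Tlr2 held in each of 14 alternatives (other filters, scalings and fits, and each library left out in turn), over which the log2 fold change was 1.58 to 1.85 for Tlr1, 1.84 to 2.42 for Tlr6 and −1.72 to −1.37 for Tlr2.

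**Figure D1:**
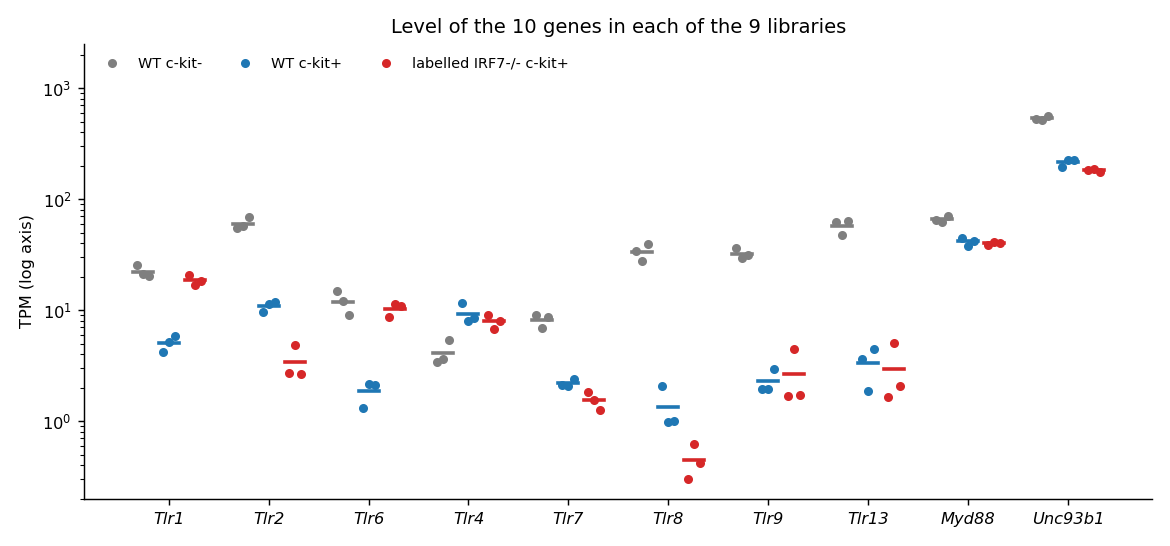
TPM of each gene on a log axis, with 1 point per library and a short line at the mean of the 3 libraries of a group (grey WT c-kit-, blue WT c-kit+, red the libraries labelled IRF7-/- c-kit+). Tlr1 and Tlr6 fall and return to 17.0 to 20.6 and 8.69 to 11.3 TPM in the red group, Tlr2 falls again to 2.68 to 4.83 TPM, and Tlr4 is lowest in the grey group.

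The ratio of Tlr2 to its partners shows the exchange within single libraries, where the scaling cancels. Tlr2 over Tlr1 was 2.16 to 3.38 in WT c-kit- and 2.02 to 2.28 in WT c-kit+, ranges that overlap, and 0.131 to 0.284 in the libraries labelled IRF7-/- c-kit+. Tlr2 over Tlr6 was 3.70 to 7.64, 5.27 to 7.31 and 0.246 to 0.427. In all 6 AML-WT libraries Tlr2 was thus the more abundant transcript of both pairs, and in all 3 labelled libraries it was the less abundant one. The ratio of Tlr1 to Tlr6 was 1.72 to 2.26, 2.39 to 3.21 and 1.5 to 2.37, and it overlapped between WT c-kit- and the labelled group. With 3 libraries against 3, an exact permutation test of such a ratio cannot go below p = 0.1.

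**Figure D2:**
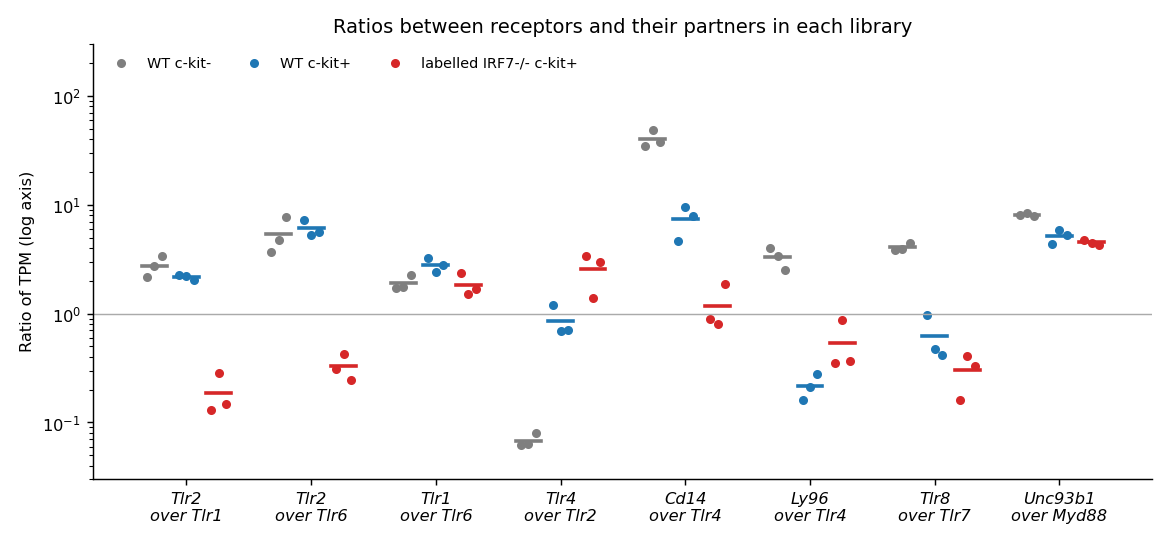
Ratio of the TPM of 2 genes in each library on a log axis, with 1 point per library, a short line at the group mean and a grey line at a ratio of 1. Tlr2 over Tlr1 and Tlr2 over Tlr6 lie above 1 in the 6 AML-WT libraries and at 0.131 to 0.427 in the 3 libraries labelled IRF7-/- c-kit+.

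Tlr4, the lipopolysaccharide receptor, was the 1 gene of the 10 that was higher in c-kit+ cells. It was 3.40, 3.63 and 5.45 TPM in WT c-kit- and 11.5, 7.94 and 8.45 TPM in WT c-kit+, while the labelled IRF7-/- c-kit+ libraries had 9.09, 6.78 and 7.96 TPM. Both c-kit+ groups stood above every WT c-kit- library, and they overlapped each other. With the c-kit sort of WT cells Tlr4 rose by a log2 fold change of 1.00 (SE 0.20, limma adjusted p = 0.00768). This passed the test with each library left out, but the size fell below the call's limit without WT c-kit- replicate 1 (0.90), WT c-kit- replicate 2 (0.94) or WT c-kit+ replicate 1 (0.85). The rise to the labelled group was 0.81 (SE 0.19, limma adjusted p = 0.00877). Between the c-kit+ groups the log2 fold change was −0.20 (95% interval −0.59 to 0.20, limma adjusted p = 0.360).

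Cd14 and Ly96, which encode partners of TLR4, did not follow Tlr4. Cd14, the co-receptor that hands lipopolysaccharide to TLR4, was 118 to 205 TPM in WT c-kit- and 53.9 to 76.4 TPM in WT c-kit+, while the labelled IRF7-/- c-kit+ libraries had 5.39 to 14.8 TPM. It fell between the c-kit+ groups by 2.76 on the log2 scale (SE 0.32, limma adjusted p = 0.000882). Ly96, whose product binds lipopolysaccharide on TLR4, was 12.3 to 13.8, 1.69 to 2.37 and 2.95 to 5.92 TPM, with no overlap between groups, and it passed the test as higher in the labelled group than in WT c-kit+. Per Tlr4 transcript, Cd14 was 34.7 to 49.0, 4.68 to 9.62 and 0.795 to 1.86. Per Tlr4 transcript, Ly96 was 2.54 to 4.02, 0.162 to 0.280 and 0.354 to 0.873, so that the transcript of this partner exceeded that of the receptor only in WT c-kit-. Lbp, the plasma protein that presents lipopolysaccharide to CD14, was 19.9 to 28.5, 82.2 to 91.9 and 108 to 136 TPM. Like Tlr4, it was higher in both c-kit+ groups than in WT c-kit-, with no overlap. Between the c-kit+ groups Lbp rose by 0.48 on the log2 scale, where Tlr4 did not pass.

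All 4 endosomal receptors were lower in both c-kit+ groups than in WT c-kit-, with no overlap. Of the 12935 genes tested in both comparisons, 24.4% were likewise below every WT c-kit- library in all 6 c-kit+ libraries. From one c-kit+ group to the other, 0 of the 3 that could be tested with limma passed, with 0 also at an unadjusted p under 0.05.

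Tlr8 was 34.5, 27.5 and 39.2 TPM in WT c-kit- and 2.07, 0.98 and 1.01 TPM in WT c-kit+, while the labelled IRF7-/- c-kit+ libraries had 0.30, 0.63 and 0.42 TPM. The 3 groups did not overlap, and set against the c-kit- cells the log2 fold change was −3.90 (SE 0.22, limma adjusted p = 3.72e-05) in WT c-kit+ and −4.57 (SE 0.16, limma adjusted p = 6.24e-06) in the labelled group. Tlr8 did not reach the filter between the c-kit+ groups, and without a filter the log2 fold change was −0.67 (SE 0.21, limma adjusted p = 0.0692). Tlr7, its neighbour and the receptor for single-stranded RNA, was 8.99, 6.99 and 8.77 TPM, then 2.12, 2.08 and 2.41 TPM, then 1.85, 1.55 and 1.26 TPM. The labelled libraries were again all below WT c-kit+, by −0.33 on the log2 scale (95% interval −0.67 to 0.01, limma adjusted p = 0.0987), which missed the threshold. Tlr8 outnumbered Tlr7 by 3.84 to 4.47 in WT c-kit- and was the lower of this pair in all 6 c-kit+ libraries.

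Tlr9, the receptor for unmethylated CpG DNA, was 36.4, 29.5 and 31.3 TPM in WT c-kit- and 1.96, 1.97 and 2.97 TPM in WT c-kit+, while the labelled IRF7-/- c-kit+ libraries had 1.69, 4.49 and 1.74 TPM. Tlr13, the rodent receptor for bacterial ribosomal RNA, was 62.1, 47.9 and 63.6 TPM, then 3.61, 1.89 and 4.48 TPM, then 1.67, 5.10 and 2.07 TPM. Replicate 2 of the labelled group was the highest of its group for both genes and for Tlr2. In WT c-kit+ against WT c-kit- the log2 fold change was −3.35 for Tlr9 (SE 0.15, limma adjusted p = 2.27e-05) and −3.81 for Tlr13 (SE 0.25, limma adjusted p = 6.55e-05). Between the c-kit+ groups the log2 fold change was 0.07 for Tlr9 (95% interval −0.65 to 0.80, limma adjusted p = 0.868) and −0.18 for Tlr13 (95% interval −1.06 to 0.70, limma adjusted p = 0.713). Without replicate 2 of the labelled group these were −0.27 and −0.55, and the intervals leave room for a change in either direction.

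Myd88 and Unc93b1 stayed abundant in every group. Myd88, the shared adaptor, was 65.4, 62.6 and 70.3 TPM in WT c-kit- and 44.7, 38.2 and 42.3 TPM in WT c-kit+, while the labelled IRF7-/- c-kit+ libraries had 38.5, 41.6 and 40.7 TPM. It fell from the c-kit- to the WT c-kit+ cells by 0.65 on the log2 scale (SE 0.08, limma adjusted p = 0.000921), and the c-kit+ groups overlapped (−0.05, 95% interval −0.23 to 0.13, limma adjusted p = 0.615). Acaa1a, which overlaps Myd88, was at 84.5 to 91.1, 48.5 to 58.5 and 50.7 to 56.0 TPM, also highest in WT c-kit- and overlapping between the c-kit+ groups, and its part in the level of Myd88 was not tested. Unc93b1, the carrier of the endosomal receptors, had the highest level of the 10 genes in all 9 libraries, at 532, 521 and 559 TPM, then 193, 224 and 225 TPM, then 185, 187 and 175 TPM.

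Set against WT c-kit-, Unc93b1 had a log2 fold change of −1.33 in WT c-kit+ (SE 0.08, limma adjusted p = 4.53e-05) and of −1.56 in the labelled group (SE 0.05, limma adjusted p = 4.73e-06). It did not overlap between the c-kit+ groups, where it fell by 0.23 (SE 0.07, limma adjusted p = 0.0382), a small change that did not hold in 7 of 14 alternatives. Its adjusted p was 0.0696 without a filter and 0.0622 with the replicate block. It was 0.0873 without WT c-kit+ replicate 2, 0.118 without WT c-kit+ replicate 3, and 0.0869, 0.0642 and 0.1185 without replicate 1, 2 or 3 of the labelled group. Unc93b1 outnumbered Myd88 by 7.96 to 8.32 in WT c-kit-, 4.32 to 5.86 in WT c-kit+ and 4.31 to 4.80 in the labelled libraries.

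Set against WT c-kit-, all 10 genes were tested and all 10 differed in WT c-kit+, with 9 lower and Tlr4 higher, and none of the 10 overlapped between the groups. Groups also did not overlap for 54.4% of all genes tested, 34.7% lower and 19.7% higher in WT c-kit+. Of 13261 genes tested, 27.6% fell and 14% rose. Called lower were 8 of the 10 and called higher 1, where the background was 9.61% and 4.83%, and the gene outside the call was Myd88. The median log2 fold change was −2.05 over the 10 genes and −0.08 over all genes tested. With quantile normalization the latter was 0.07 and the split of all genes went from 1860 higher and 3659 lower to 3044 and 2590, while 9 of the 10 genes were again called. Of the surface receptors, Tlr1 had a log2 fold change of −1.93, Tlr2 of −2.35 and Tlr6 of −2.16. The endosomal 4 lay between −3.90 and −1.52.

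In the libraries labelled IRF7-/- c-kit+, set against the same WT c-kit- libraries, 7 of the 10 fell and 1 rose, and Tlr1 and Tlr6 did not pass. The background was 28.7% of 13510 genes for a fall and 30.7% for a rise. Groups did not overlap for 8 of the 10, 7 lower and Tlr4 higher, against 67.1% of all genes tested, 32.4% lower and 34.7% higher. Called lower were 6 of the 10 and called higher 0, since Tlr4 rose by less than the call's limit, where 11.9% and 8.4% of all genes were called. The median was −1.71 over the 10 genes and 0.03 over all genes tested. Because the same WT c-kit- libraries stand in both comparisons, the values are given side by side and no overlap was drawn from them.

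**Figure D3:**
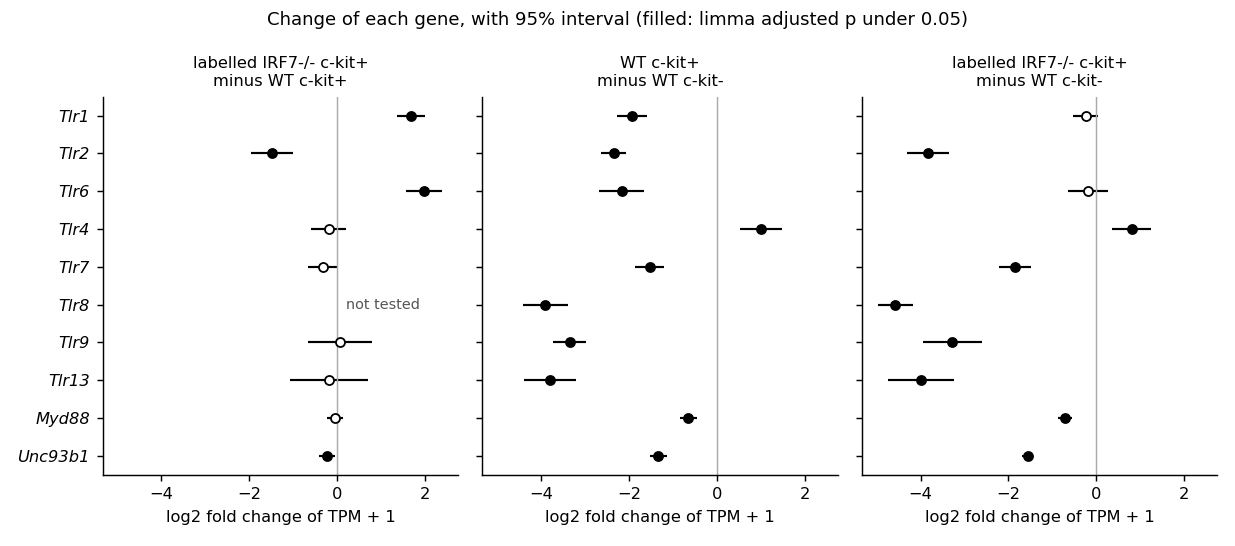
Log2 fold change of TPM + 1 for each gene in the 3 comparisons, with the 95% interval of the limma fit, where a filled point has an adjusted p under 0.05. The left panel has Tlr1 (1.69) and Tlr6 (1.98) to the right of 0 and Tlr2 (−1.48) to the left, and the endosomal receptors are far left of 0 only in the other panels.

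The summed receptor level was lower in both c-kit+ groups than in WT c-kit-, and the leading receptors differed among the 3 groups. The summed level of the 8 receptors was 206 to 246 TPM in WT c-kit- and 33.7 to 39.3 TPM in WT c-kit+, while the labelled IRF7-/- c-kit+ libraries had 45.3 to 51.7 TPM. Endosomal receptors made up 54.3% to 59.0% of it in WT c-kit-, 20.5% to 27.7% in WT c-kit+ and 11.8% to 22.8% in the labelled group, where the c-kit+ groups overlapped. Tlr13 had a mean share of 25.0% in WT c-kit-, next to Tlr2 with 26.2%, and Tlr4 one of 1.80%. In WT c-kit+ the leading shares were those of Tlr2 (30.3%) and Tlr4 (25.5%). In the labelled libraries Tlr1 (39.2%) and Tlr6 (21.5%) led, and Tlr2 had 7.02%.

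**Figure D4:**
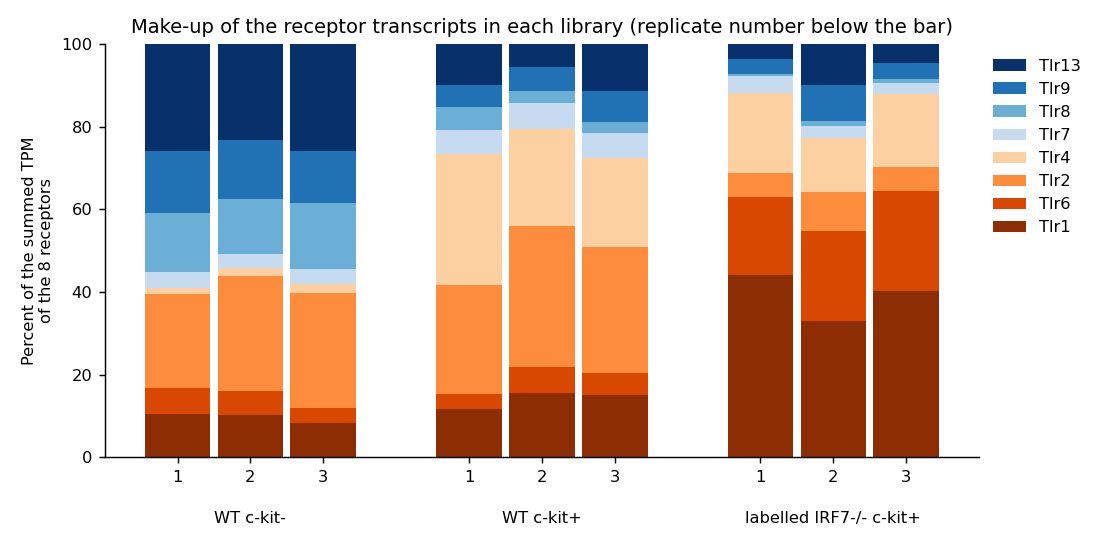
Share of each receptor in the summed TPM of the 8 receptors, as 1 stacked bar per library in percent, with surface receptors in orange and endosomal receptors in blue. Blue takes 54.3% to 59.0% of the bars of WT c-kit-, and the darkest oranges (Tlr1 and Tlr6) take most of the bars of the 3 labelled libraries.

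Ordered by level, Unc93b1 came first in each group. In WT c-kit- it was followed by Myd88, Tlr2 and Tlr13, whose ranges overlapped from one to the next, then by Tlr8 and Tlr9, which overlapped, then Tlr1, then Tlr6 and Tlr7, which overlapped, and last Tlr4. In WT c-kit+ the order was Unc93b1, Myd88, then Tlr2 and Tlr4 with overlapping ranges, then Tlr1, Tlr13, Tlr9, Tlr7, Tlr6 and Tlr8, in which each overlapped the next. In the labelled libraries it was Unc93b1, Myd88, Tlr1, then Tlr6 and Tlr4, which overlapped, then Tlr2, Tlr13, Tlr9 and Tlr7, each overlapping the next, and Tlr8 last and apart.

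Over the 9 libraries, the log2 levels of Tlr1 and Tlr6 had a Pearson r of 0.98, and those of Tlr9 and Tlr13 one of 0.99. Tlr2 had an r of 0.23 with Tlr1 and 0.20 with Tlr6, but 0.91 to 0.96 with the endosomal receptors, Myd88 and Unc93b1. Tlr4 was negatively related to each of the other 9 genes, at −0.69 to −0.91. These are descriptions over 9 libraries in 3 groups, so they mainly restate the group means, and Tlr1 and Tlr6 share part of their sequence.

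Of 10774 genes that reached 5 TPM in 3 or more libraries, those most like Tlr1 over the 9 libraries were Gm2a, Rnase4 and H2-DMa (r of 0.99 or more). Gm2a, a lysosomal activator of ganglioside breakdown, had means of 123, 26.9 and 108 TPM, and H2-DMa, which loads peptide onto MHC class II, of 155, 40.1 and 128 TPM. Most like Tlr6 were Tcf4, Alyref2 and Myef2. Tcf4, a transcription factor that plasmacytoid dendritic cells need, had means of 85.0, 20.9 and 70.9 TPM. Most like Tlr2 were Khnyn, D1Ertd622e and Naaa, and Naaa, a lysosomal amidase, had means of 107, 15.9 and 3.38 TPM. Tlr7 was closest to Sirpb1c, Sirpb1b and Lgmn, the last being a lysosomal protease that takes part in cutting endosomal receptors, and Tlr8 to Stat6, Stard3nl and Mindy2. Tlr9 was closest to Tmem109, Myadm and Ugt1a7c, Tlr13 to Plekhg3, Prex1 and Msn, Tlr4 to Tnfrsf23, Zxdc and Pde8a, Myd88 to Arhgef11, Nfam1 and Iqgap1, and Unc93b1 to Zcchc24, Arhgef37 and P2rx7.

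The other Toll-like receptor genes were low. Tlr3, Tlr11 and Tlr12 stayed below 1 TPM in all 9 libraries. Tlr5, the flagellin receptor, was 2.96 to 5.60 TPM in WT c-kit- and below 1 TPM in the 6 c-kit+ libraries.

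Around the receptors, 93 genes in 8 lists were read (other receptors, co-receptors, folding and traffic, other adaptors, kinases and ubiquitin ligases, transcription factors, brakes and cytokines). In the comparison of the c-kit+ groups, 78 were tested, 11 rose, 30 fell and 37 did not pass, against 31.9% higher and 16.1% lower of all genes. The median log2 fold change of these 78 was −0.15, beside 0.12 over all genes. The count of rises depended on the processing and was 7 without a filter and 7 with quantile normalization. Against WT c-kit-, 9 of 79 rose and 40 fell in WT c-kit+ (median −0.50), and 13 rose and 50 fell in the labelled group (median −0.46). Of all genes tested, 14% rose and 27.6% fell in WT c-kit+ (median −0.08). In the labelled group 30.7% of all genes rose and 28.7% fell (median 0.03).

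Of the genes that fold, move and cut the receptors, 1 of 14 tested rose between the c-kit+ groups and 6 fell. Lrrc59, which helps endosomal receptors leave the endoplasmic reticulum, had means of 89.2 TPM in WT c-kit+, while the labelled IRF7-/- c-kit+ libraries had 140 TPM (log2 fold change 0.65). The cathepsin genes Ctss (41.4 and 18.9 TPM) and Ctsl (20.7 and 12.1 TPM), whose proteases process endosomal receptors, fell, as did Slc15a4 (45.0 and 21.4 TPM), an endolysosomal transporter that TLR7 and TLR9 signalling needs. Of the other adaptors, Ticam2, which links TLR4 to TRIF, rose from 2.13 to 7.27 TPM (log2 fold change 1.41, SE 0.15, limma adjusted p = 0.000625). Its mean in WT c-kit- was higher than both, at 18.3 TPM. Tirap, which bridges TLR2 and TLR4 to MyD88, fell from 18.1 to 11.2 TPM, and Pik3ap1 from 44.8 to 34.2 TPM.

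Of 19 kinases and ubiquitin ligases tested, 1 rose and 4 fell. Ikbke, a kinase that phosphorylates IRF3 and IRF7, fell from a mean of 153 to 56.7 TPM (log2 fold change −1.43, SE 0.12, limma adjusted p = 0.000256). Its mean in WT c-kit- was 51.8 TPM, and the labelled group did not pass against WT c-kit- (log2 fold change 0.12, limma adjusted p = 0.489). Traf3 and Peli1 fell by 0.42 and 0.32 on the log2 scale, and Ube2v1 rose by 0.31. The 14 others did not pass. Of 10 transcription factors, Irf7 and Irf1 were higher and 5 fell. Irf5, a factor that MyD88 also activates, fell from 20.7 to 9.31 TPM, Irf8 from 120 to 41.7 TPM and Jun from 283 to 24.6 TPM. Jun varied widely within groups, at 132 to 454 TPM in WT c-kit+ and 5.54 to 50.45 TPM in the labelled group (SE 0.77 on the log2 scale).

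Among 16 brakes tested, 1 rose and 7 fell. The largest falls were those of Dusp1, a phosphatase that ends MAP kinase signalling (68.2 to 14.0 TPM), and of the inhibitory receptors Lilrb4a (24.1 to 3.94 TPM) and Pirb (35.0 to 15.4 TPM), while Sigirr rose by 0.23 on the log2 scale. Among 8 cytokine genes tested, 5 fell and 2 rose. Ccl3 fell from 178 to 19.3 TPM (log2 fold change −3.05, SE 0.35, limma adjusted p = 0.000882), Ccl4 from 29.4 to 4.41 TPM and Il1b from 5.56 to 0.103 TPM. Il12a rose from 23.2 to 41.0 TPM. Ifnb1, Ifna1, Ifna2, Ifna4, Ifna5 and Il12b were listed at 0 in all 9 libraries.

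**Figure D5:**
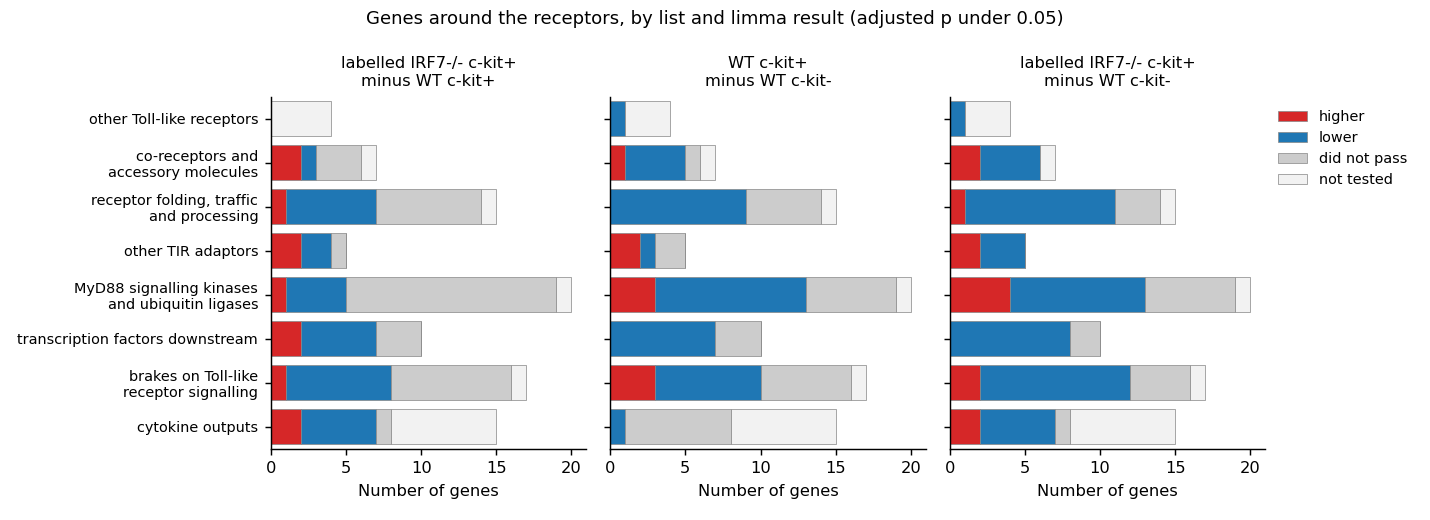
Number of genes of each list that were higher, lower, did not pass or were not tested in each comparison (limma adjusted p under 0.05). In the left panel 11 genes were higher and 30 lower in all, and lower genes outnumber higher ones in the folding, kinase, factor, brake and cytokine lists of all 3 panels.

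Markers of cell types moved with these groups. The summed level of 10 neutrophil genes was 6169 to 30685 TPM in WT c-kit- and 56745 to 110880 TPM in WT c-kit+, while the labelled IRF7-/- c-kit+ libraries had 1604 to 2529 TPM, where 9 of the 10 fell against WT c-kit+. Replicate 2 of the labelled group, with the highest Tlr2, Tlr9 and Tlr13 of its group, also had its highest neutrophil sum. The same library was highest of its group for Flt3 (56.9 TPM, against 8.65 and 7.93), Irf8 (65.5, against 28.6 and 31.1) and Cx3cr1 (4.69, against 1.74 and 1.23). It was lowest of its group for the progenitor and plasmacytoid dendritic cell sums given below (the latter 216 TPM, against 409 and 219). Of the plasmacytoid dendritic cell genes tested, Bst2 was lowest in this library (102.63 TPM, against 328.93 and 132.14). Tcf4 (87.02 TPM, against 60.73 and 64.89) and Runx2 were instead highest in it. Of the progenitor genes, Kit, Mpo, Elane, Prtn3 and Ctsg were lowest in this library, while Cd34, like Flt3, was highest. The summed level of 9 monocyte and macrophage genes was 4311 to 5377, 2116 to 2443 and 2536 to 3120 TPM. Of these genes, Csf1r and Cx3cr1 fell between the c-kit+ groups, and Ccr2 and Adgre1 rose. The 8 myeloid progenitor genes summed to 3038 to 3640, 14325 to 19710 and 17863 to 23575 TPM. The 7 plasmacytoid dendritic cell genes summed to 191 to 229, 82.2 to 108 and 216 to 409 TPM, with Bst2 and Tcf4 higher and Runx2 lower in the labelled group than in WT c-kit+. Of that list Ccr9, Pacsin1 and Klk1 were below 1 TPM in all 9 libraries, and Siglech was below 1 TPM in all 6 c-kit+ libraries. The part of these cell types in the receptor levels was not tested, and in bulk RNA fewer cells of a type and less RNA per cell cannot be told apart.

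Markers of other cells were mixed. Of the 7 endothelial and stromal genes, Cdh5, Kdr and Tek, which define endothelium, were below 1 TPM in every library. The other members include Pecam1, an adhesion molecule that myeloid cells also carry, which was 83.7 to 99.2 TPM in WT c-kit-, 37.9 to 47.2 TPM in WT c-kit+ and 92.1 to 106 TPM in the labelled libraries. All 3 tested genes of this list rose between the c-kit+ groups, Pecam1 by 1.21, Cxcl12 by 0.97 and Lepr by 0.85 on the log2 scale. The list summed to 128 to 159, 59.6 to 70.2 and 124 to 157 TPM, lowest in WT c-kit+ as Tlr1 and Tlr6 were, and its part in their levels was not tested. Of the B cell list Ms4a1 and Pax5 were below 1 TPM in every library, while Cd79b was 25.8 to 37.1 TPM and overlapped among all groups. Of the T and NK cell list 6 of 7 genes were below 1 TPM in every library. Of the erythroid list Klf1 was below 1 TPM in every library, and the globin gene Hba-a1 was 1.32 to 6.68 TPM. Of the 5 megakaryocyte and platelet genes, Gp9 was 0.36 to 0.53 TPM in WT c-kit- and 4.99 to 9.60 TPM in the c-kit+ libraries, and Itga2b rose between the c-kit+ groups by 0.83 on the log2 scale.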

How the data were processed

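Bulk RNA of 9 libraries was used, in 3 groups of 3 that the sample titles name (WT c-kit-, WT c-kit+ and IRF7-/- c-kit+). The authors deposited TPM of 55536 genes in 1 table, already aligned, quantified and scaled for transcript length and library size. The unit has no header, and TPM was inferred from the column sums, which run from 987468 to 992231. The labels name sequencing libraries, while the paper calls the assay a microarray. The aligner, its settings, the build and the use of strand are not given in the sources used here. All 55536 identifiers are those of GENCODE M21 (GRCm38), which gave coordinates and transcripts. TPM keep no depth, so only the 3 libraries of a group show the precision of a value, and a rise of abundant genes pushes the other values of that library down.

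For 2 groups at a time, their 6 libraries were fitted with limma (version 3.58.1 in R 4.3.3; lmFit, eBayes with trend) on log2(TPM + 1). A gene entered if it reached 1 TPM in 3 or more of the 6, p was adjusted by Benjamini-Hochberg over every gene entered, and a call also needed a log2 fold change of 1 or more in either direction. The functions were tested on simulated data. Named were all 10 genes of the report, Irf7 and Kit, up to 3 genes per list and direction among those that passed between the c-kit+ groups with a mean of at least 5 TPM, and the 3 genes most like each of the 10. Overlapping or defining genes are named where a result turns on them. The 10 genes and the lists were chosen with earlier results of these data known. Alternatives were no filter or one of 5 TPM, a pseudocount of 0.1, quantile normalization, median centring, the 10 most abundant genes left out, the replicate number as a block, all 9 libraries fitted together, leaving out each library, and other thresholds. Scripts ran in Python 3.11.15 (pandas 2.3.3, matplotlib 3.10.9).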

Additional observations from a re-analysis of the deposited data

How the results depend on the processing

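The number of genes called among the 10 was 3 between the c-kit+ groups under every filter, pseudocount, scaling and fit tried and with each library left out, and 4 at an adjusted p under 0.05 alone. For WT c-kit+ against WT c-kit- it was 9, with 8 to 9 when a library was left out and 10 at the adjusted p alone, and for the labelled IRF7-/- c-kit+ libraries against WT c-kit- it was 6, and 8 at the adjusted p alone. In both comparisons with WT c-kit- all 140 recomputed changes of the 10 genes kept their direction and their side of the adjusted p threshold. Between the c-kit+ groups 109 did. Of the others, 7 changed direction, for Tlr9, Tlr13 or Myd88, which did not pass the test. The other 7 were losses of the adjusted p by Unc93b1. Tlr9 was −0.0103 with median centring and −0.0026 with the 10 most abundant genes left out, in place of 0.07. With each library left out, Tlr9 ran from −0.27 to 0.25, Tlr13 from −0.55 to 0.0502 and Myd88 from −0.11 to 0.00015. The fall of Unc93b1 lost its adjusted p in 7 of 14 alternatives, by values given with that gene, and Irf7 in 6. Whether equal replicate numbers share a mouse or a day is not given in the sources used here, and 1 of 9 same-numbered pairs of libraries had a correlation of deviations above 0.1 (range −0.07 to 0.24), so the numbers were not taken to pair the samples. With the replicate number as a block, 3, 9 and 6 genes were called in the 3 comparisons, the same numbers as without it, and Unc93b1, which passed the adjusted p without being called, no longer passed it between the c-kit+ groups (limma adjusted p = 0.0622). Depth limits what can be said of Tlr7, Tlr8, Tlr9 and Tlr13 in c-kit+ cells, which were at 0.30 to 5.10 TPM with unknown read numbers. The causes of these changes were not tested.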
